A study of Mus musculus with 3530 samples.

Results

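Glucocorticoid signalling was described here through 7 genes, which are the 2 corticosteroid receptor genes Nr3c1 and Nr3c2, the steroid-activating enzyme gene Hsd11b1, and the hormone-responsive genes Fkbp5, Sgk1, Tsc22d3 and Per1. The members were taken by name from the table of read counts, and all 7 were found among its 23354 genes (the reporter transcript not counted). The table holds 3530 individual cells from medial prefrontal cortex of mice, dissociated with papain. Libraries were made by Smart-seq2, which reads full-length transcripts of cells in plates and carries no molecular identifiers. The mice carried TRAP2, a recombinase expressed from an activity-dependent gene and active only while tamoxifen is present, and Ai14, which then turns on the red reporter tdTomato for good, so a marked cell is one that was active in the labelling window. All groups share these 2 alleles, and no group without them was analysed.

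The 4 conditions were Fear-Recall (1342 cells), Fear-Only (841), Context-Only (912) and Homecage (435), with 5 animals each. Homecage animal 1 gave 1 cell, so 19 animals entered sums of reads, and Context-Only held a second animal numbered 5, called 5b here. Cells of animals numbered 2 to 4 were sorted as reporter-positive (pos, 1806 cells) or reporter-negative (neg, 779 cells), 96 cells of Homecage animal 3 came from a plate marked with both gates, and 849 cells carried no gate. Per the labels, no strain, age, sex, training schedule or tamoxifen dose was given, nor the meaning of the number shared by animals of different conditions. A reporter that remains on after labelling marks past activity, and the recombinase reports only cells in which its driver gene responded.

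Cells held between 100002 and 6840943 reads (median 813078). Clustering without the 7 genes gave 20 clusters, of which 12 (2383 cells) carried excitatory markers and 8 (1147 cells) inhibitory markers, with no cluster led by glial or vascular markers. At least 1 reporter read was found in 34.5% of the pos cells of Context-Only animal 2 and in 23.5% of those of Homecage animal 2, against 63% to 96.9% in the other pos sorts and 7.3% to 12.8% in the neg sorts. Results by gate are therefore also given without those 2 animals where this changed a value.

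Corticosterone, the main glucocorticoid of mice, crosses into neurons and binds 2 nuclear receptors. The mineralocorticoid receptor (Nr3c2) binds it tightly and is largely occupied at resting hormone levels, whereas the glucocorticoid receptor (Nr3c1) is filled during stress and at the daily peak. Bound receptors leave their chaperones, enter the nucleus and act at glucocorticoid response elements, palindromes of a short half-site, from which Fkbp5, Sgk1, Tsc22d3 and Per1 are known to be induced. Hsd11b1 encodes the enzyme that regenerates active corticosterone inside the cell, and Fkbp5 encodes a co-chaperone that lowers the receptor's affinity for hormone.

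Windows of 250 bases before annotated starts are shown for 3 of the target genes, because they differ in the elements named above. For Sgk1 this is 1 of 6 windows at annotated starts and the only one with the full element, for Per1 it is the 1 of 2 windows with an E-box, and Fkbp5 has 1 window. They come from RefSeq on GRCm38.p6, whose promoter table matched 6 of the 7 genes with 14 windows. The Sgk1 window is chr10:21993640-21993889 (plus strand), that of Per1 is chr11:69098699-69098948 (plus strand) and that of Fkbp5 is chr17:28486150-28486399 (minus strand). Capitals mark the response element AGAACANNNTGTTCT or its half-site TGTTCT and the E-box CACGTG, the element bound by clock proteins, all searched on both strands.
Sgk1: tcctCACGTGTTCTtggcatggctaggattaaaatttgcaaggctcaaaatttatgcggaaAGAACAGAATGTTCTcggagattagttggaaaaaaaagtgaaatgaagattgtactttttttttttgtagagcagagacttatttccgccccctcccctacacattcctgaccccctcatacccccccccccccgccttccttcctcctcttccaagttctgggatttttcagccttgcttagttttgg
Per1: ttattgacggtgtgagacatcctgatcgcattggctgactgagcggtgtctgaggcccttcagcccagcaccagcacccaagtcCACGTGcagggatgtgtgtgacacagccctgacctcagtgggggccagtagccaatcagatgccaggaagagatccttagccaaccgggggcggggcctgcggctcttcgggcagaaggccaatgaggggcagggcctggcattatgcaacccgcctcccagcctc
Fkbp5: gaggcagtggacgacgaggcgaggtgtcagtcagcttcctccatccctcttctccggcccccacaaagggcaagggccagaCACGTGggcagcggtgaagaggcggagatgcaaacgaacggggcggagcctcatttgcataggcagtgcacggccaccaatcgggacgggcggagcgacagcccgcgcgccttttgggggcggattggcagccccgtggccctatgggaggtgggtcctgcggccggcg
The full palindrome was present before this 1 of 6 Sgk1 starts and was found in 3 of 32851 promoter windows of that length (0.00913%). A half-site was found in 16.1% of all windows and an E-box in 6.02%. In the Sgk1 window an E-box also shared letters with a half-site, while the Per1 and Fkbp5 windows held an E-box each and no half-site. A match describes the letters of a window and nothing about binding in these cells.

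The 7 genes were detected in very different shares of the cells. A read was found in 77.6% of the 3530 cells for Per1, 72.6% for Nr3c1, 72.5% for Tsc22d3 and 52.7% for Sgk1, against 18.4% for Nr3c2, 18.2% for Fkbp5 and 9.58% for Hsd11b1. Reads of the last 3 genes were concentrated in few cells. The 36 cells with the highest level held 49.9% of the summed level of Hsd11b1, 43.1% of that of Nr3c2 and 34.5% of that of Fkbp5, but 8.0% of that of Nr3c1. Values below are CPM (reads scaled to a common library size, scaled by TMM) in reads summed per animal, so that fewer cells expressing a gene and less RNA per cell cannot be told apart in them. Values of single clusters, and of the other neurons they are set against, are CPM without the TMM scaling.

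The comparison of neuron classes asked how the members differ between inhibitory and excitatory neurons of the same 17 animals. Of the members 5 of 7 differed at an adjusted p under 0.05 in edgeR's quasi-likelihood test, with the animal as a block, beside a background of 41.1% of 16097 genes. In detail 3 were higher in inhibitory neurons, where 18.5% of genes were, and 2 were lower, where 22.6% were. The median difference was 0.58 on the log2 scale over the members and -0.10 over all genes. Members were kept out of the clustering that defined the classes, but genes that vary with them were in it.

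The 2 receptors differed in opposite directions. Nr3c1 (chromosome 18, 39410545 to 39519421) had a lowest, median and highest level of 56.4, 99.8 and 127.8 CPM in excitatory sums. In inhibitory sums these were 11.9, 52.9 and 88.1 CPM, so the classes overlapped across animals, but the inhibitory value was the lower one within 17 of 17 animals. The difference was -0.89 (log2, SE 0.15, adjusted p = 8.11e-05). Nr3c2 (chromosome 8, 76899442 to 77245012) had 0.0599, 2.78 and 14.04 CPM in excitatory sums and 4.21, 17.7 and 33.7 CPM in inhibitory sums. It was higher in inhibitory neurons in 17 of 17 animals, by 2.61 (log2, SE 0.40, adjusted p = 2.38e-05).

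Shares of cells showed the same order. An Nr3c1 read was found in 81.5% ± 12.6 (SD, n = 17) of excitatory and 46.5% ± 12.8 of inhibitory neurons, and in 76.3% and 41.0% after every cell was thinned to 100000 reads. An Nr3c2 read was found in 10.8% ± 4.59 of excitatory and 33.1% ± 6.63 of inhibitory neurons (7.41% and 26.3% thinned). Median depth was 812311 reads per excitatory and 816206 per inhibitory neuron. Excitatory neurons had a median of 7226 detected genes and inhibitory neurons 5595. The part of this difference in the shares was not tested.

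Levels of the receptors can be set against each other only per length. Divided by the annotated exon length, Nr3c1 had 12.7 ± 2.57 CPM per kb and Nr3c2 0.549 ± 0.486 in excitatory neurons (SD, n = 17), and Nr3c1 was the higher in 17 of 17 animals. In inhibitory neurons they had 7.22 ± 2.67 and 2.83 ± 1.38 CPM per kb, with Nr3c1 higher in 16 of 17.

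**Figure D1:**
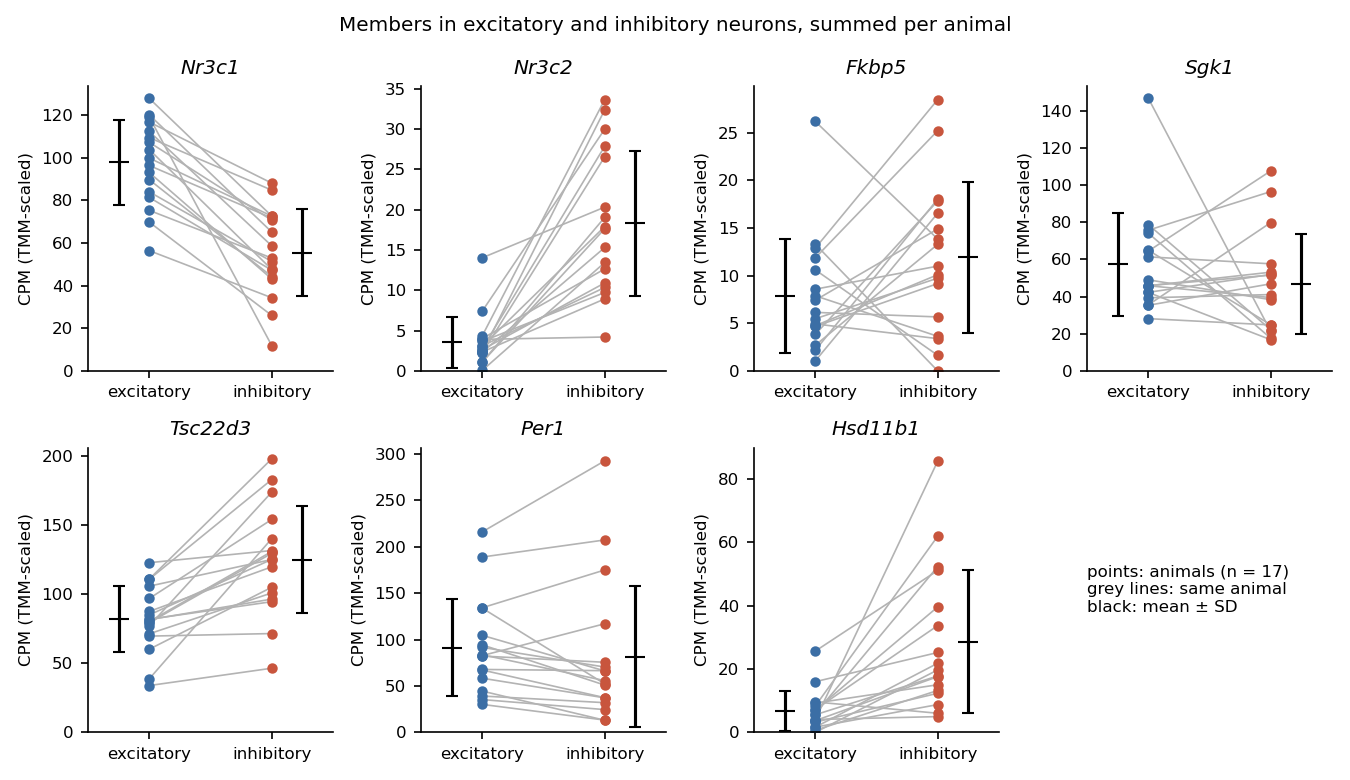
Level of each member (CPM, axis from 0) in the summed excitatory and inhibitory neurons of 17 animals; each line joins the 2 sums of 1 animal, and black marks are means ± SD. Nr3c1 was lower and Nr3c2 and Tsc22d3 were higher in inhibitory neurons in 17 of 17 animals.

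Across clusters the balance of the receptors ran from strong excess of Nr3c1 to excess of Nr3c2. In clusters named by their leading genes, with levels averaged over animals that had 5 or more cells there, Nr3c1 exceeded Nr3c2 per kb in 19 of the 20. The exception was the inhibitory cluster led by Cnr1 and Vip, with 3.13 CPM per kb of Nr3c1 and 5.36 of Nr3c2 (a ratio of 0.584). Cnr1 encodes the cannabinoid receptor of cholecystokinin-type interneurons and Vip a neuropeptide. Other Vip clusters had ratios of 3.02 (led by Vip and Penk) and 3.68 (Vip and Synpr). Among clusters classed as excitatory the lowest ratio was 1.81, in the cluster led by Elob and Timm8b. It was 1 of the 2 clusters of fewest genes per cell (low-gene clusters, 177 cells in all). Its markers were mixed, with mean log values of 0.41 for the excitatory and 0.18 for the inhibitory list. It also held 2420 CPM of Vip, against at most 128 CPM in the other excitatory clusters, so its class is uncertain. The next ratio was 3.53, in the cluster led by Cdh13 and Crym, which also expressed Fezf2. The highest was 460.0, in the cluster led by Cck and Sub1, where Nr3c2 was at 0.145 CPM. These are descriptions, since clusters were made from genes that vary together.

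**Figure D2:**
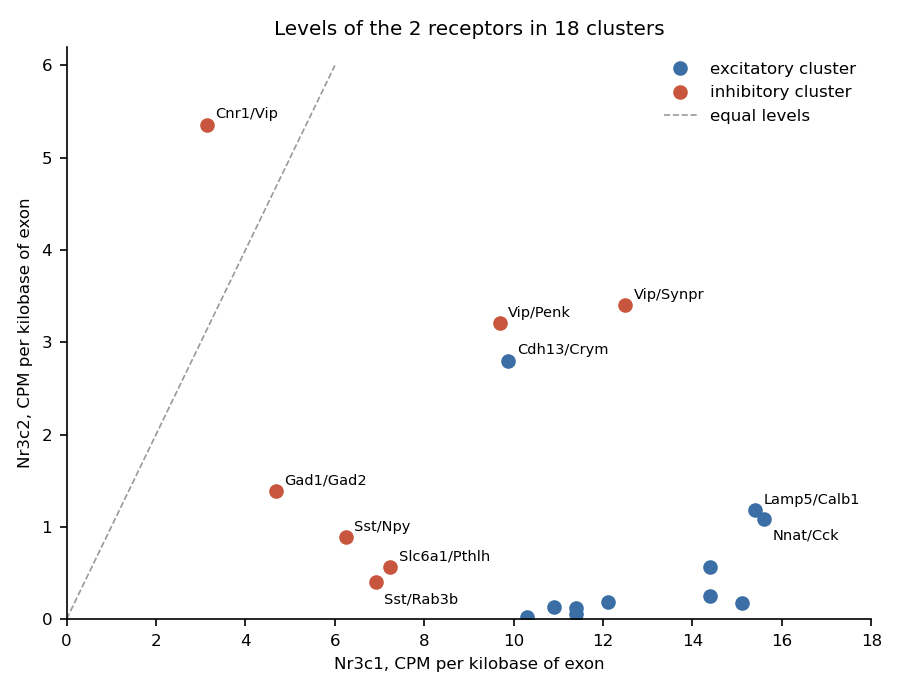
Nr3c1 against Nr3c2 per kb of exon (CPM per kb) in the 18 clusters that are not low-gene clusters, each point the mean over animals, with the line of equal levels. The cluster led by Cnr1 and Vip is the only one on the Nr3c2 side of the line (5.36 against 3.13).

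Within animals, the Cnr1 and Vip cluster had 34.7 ± 14.1 CPM of Nr3c2 against 14.8 ± 9.50 in the other inhibitory neurons and was higher in 13 of 14 animals. Nr3c1 was at 24.1 ± 22.5 CPM there against 66.9 ± 19.3, lower in 10 of 14. Inhibitory neurons led by Sst and Rab3b had the least Nr3c2, with 2.59 ± 2.83 CPM against 17.4 ± 8.97 (lower in 9 of 10 animals). Among excitatory clusters other than the low-gene one (25.1 CPM in the Elob and Timm8b cluster), Nr3c2 was highest in the Cdh13 and Crym cluster, at 18.1 ± 8.50 CPM against 2.12 ± 1.08 (higher in 8 of 8).

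Hsd11b1 (chromosome 1, 193221634 to 193264075) was higher in inhibitory neurons. Its lowest, median and highest levels were 4.996, 19.8 and 85.7 CPM there and 0, 5.56 and 25.7 CPM in excitatory neurons. The inhibitory value was higher in 16 of 17 animals, by 2.28 (log2, SE 0.44, adjusted p = 0.000294). A read was found in 12.3% ± 5.4 of inhibitory and 6.48% ± 4.07 of excitatory neurons. The highest level was in the same Cnr1 and Vip neurons, which held 92.8 ± 59.5 CPM against 18.4 ± 20.4 in the other inhibitory neurons and were higher in 14 of 14 animals. Without that cluster (chosen after its values were seen) the difference was 1.07 (SE 0.54) and no longer passed (adjusted p = 0.128, the highest of 26 alternatives, of which the lowest gave 7.44e-11), whereas Nr3c2 still passed at 2.16 (adjusted p = 0.000716). Among excitatory clusters Hsd11b1 was at 20.3 ± 11.7 CPM in the Cck and Sub1 cluster and had no read in the cluster led by Lamp5 and Calb1 in 10 animals.

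**Figure D3:**
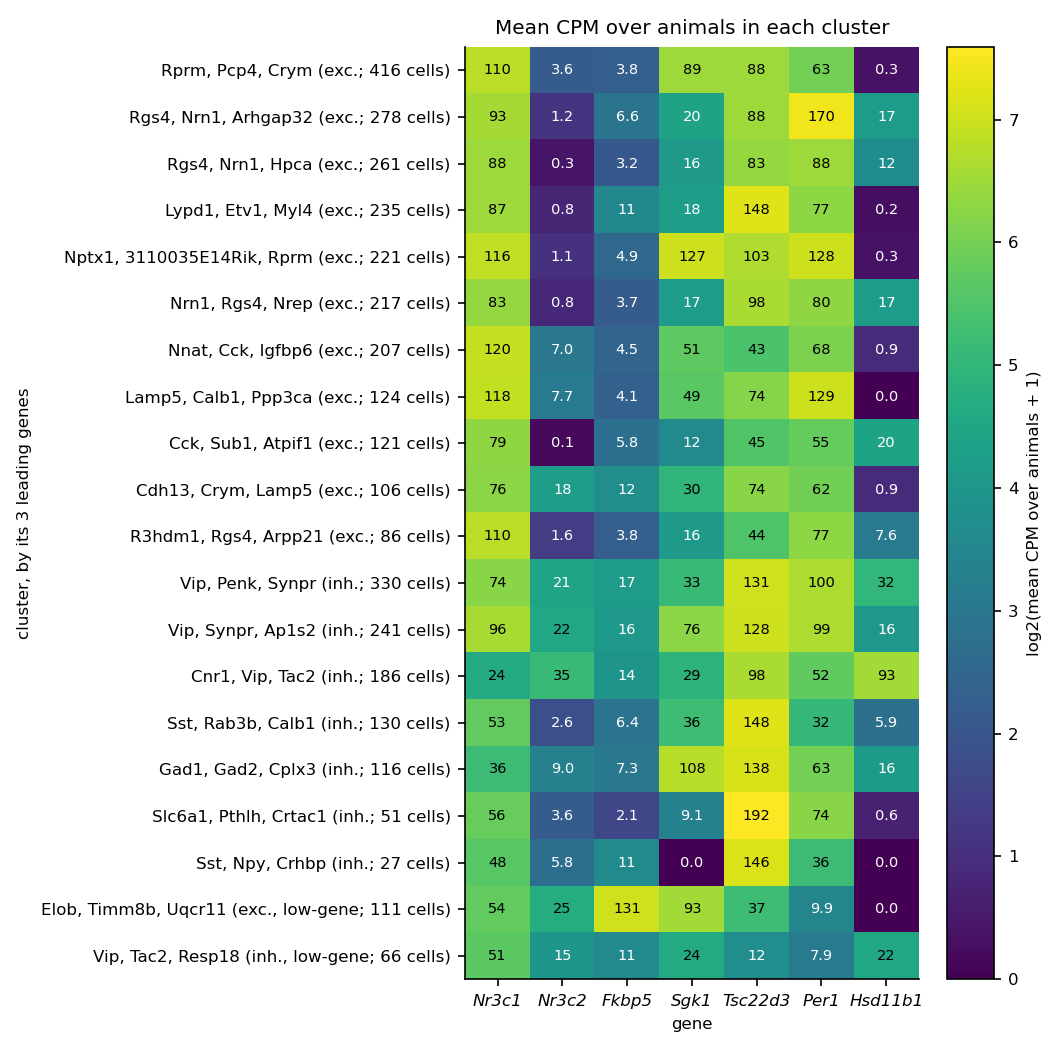
Mean level of the 7 genes over animals in the 20 clusters, named by their leading genes, printed as CPM and coloured by log2(CPM + 1). Hsd11b1 and Nr3c2 peak in the cluster led by Cnr1 and Vip (92.8 and 34.7 CPM), where Nr3c1 has its lowest value (24.1 CPM).

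Tsc22d3 (chromosome X, 140539528 to 140600659) encodes the leucine zipper protein GILZ, a mediator of glucocorticoid effects. It had 46.5, 125.3 and 198.1 CPM (lowest, median, highest) in inhibitory and 33.9, 81.7 and 122.9 CPM in excitatory sums. Although these ranges overlapped, inhibitory neurons were higher in 17 of 17 animals, by 0.60 (log2, SE 0.10, adjusted p = 7.95e-05). Among excitatory clusters other than the low-gene one (36.9 CPM) it ran from 42.8 ± 18.6 CPM in the cluster led by Nnat and Cck, lower than the other excitatory neurons in 15 of 15 animals, to 147.6 ± 48.5 in that led by Lypd1 and Etv1, higher in 16 of 16.

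Per1 (chromosome 11, 69095217 to 69109960) is a core clock gene that hormone and neuronal activity both induce. It had 13.1, 55.8 and 292.4 CPM in inhibitory and 30.2, 82.7 and 215.9 CPM in excitatory sums. It was lower in inhibitory neurons in 13 of 17 animals, by -0.46 (log2, SE 0.15, adjusted p = 0.0176). This call rested on comparing classes within animals, since without the animal as a block the difference was -0.17 (adjusted p = 0.778, with 0.00303 to 0.778 over 26 alternatives). The Sst and Rab3b cluster had 32.5 ± 28.7 CPM against 53.0 ± 38.2 in the other inhibitory neurons and was lower in 10 of 10 animals.

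Sgk1 (chromosome 10, 21882184 to 21999903), a kinase gene that both receptors induce, did not pass between the classes. It had 16.8, 41.1 and 107.7 CPM in inhibitory and 28.2, 45.9 and 146.9 CPM in excitatory sums, a difference of -0.37 (log2, SE 0.25, adjusted p = 0.259). It varied more between clusters of 1 class. The excitatory cluster led by Nptx1 and Rprm had 127.3 ± 70.6 CPM against 48.1 ± 34.2 in the other excitatory neurons, higher in 9 of 9 animals. The inhibitory cluster led by Gad1 and Gad2, which also had Cplx3 and Lamp5 among its leading genes, had 21.9, 86.4 and 321.6 CPM (lowest, median, highest) and was above the other inhibitory neurons, at 44.8 ± 28.03 CPM, in 11 of 13 animals.

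Fkbp5 (chromosome 17, 28399094 to 28517527) did not pass either. It had 11.9 ± 7.92 CPM in inhibitory sums (0 to 28.5) and 7.91 ± 5.99 in excitatory sums (1.04 to 26.2), a difference of 0.58 (log2, SE 0.55, adjusted p = 0.425), and the higher class varied by animal (inhibitory in 11 of 17). Its highest excitatory value outside the low-gene clusters was in the Cdh13 and Crym neurons, with 12.5 ± 8.68 CPM against 5.51 ± 3.45 in the others (8 of 8 animals).

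Markers of other cells were read beside these values. The 10 astrocyte markers summed to between 216.5 and 915 CPM in inhibitory and between 320 and 808 CPM in excitatory sums, with 1 of 9 tested higher and 2 lower. The 8 oligodendrocyte markers summed to between 19.2 and 654 CPM and between 48.9 and 283 CPM, with 1 of 7 tested higher. The 8 microglial markers summed to between 7.96 and 58.5 CPM in inhibitory and between 17.8 and 142.7 CPM in excitatory sums. Of these 4 were tested, with 2 lower in inhibitory neurons and 0 higher (median -2.75). Of 7 vascular markers 1 was tested, and it was lower (-2.64). The part of such RNA in the members' differences was not tested.

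Other genes of the pathway were read by list. Over all genes tested 18.5% were higher in inhibitory neurons and 22.6% lower, and these shares stand beside each count below. Of 14 receptor chaperones and co-regulators, 5 were higher in inhibitory neurons and 3 lower (median 0.04). Fkbp4, the co-chaperone that favours hormone binding, differed by 0.90 (SE 0.05, adjusted p = 2.25e-11), the coactivator Ncoa1 by 0.72 and the co-chaperone Stip1 by 0.43, whereas the corepressor Ncor1 differed by -0.29. Ptges3 and Hsp90ab1, which are among the 8, did not pass without the animal block (adjusted p = 0.118 and 0.545), nor did Hsp90ab1 without the Cnr1 and Vip cluster (0.0521). Of 16 other glucocorticoid-induced genes tested of a list of 20, 6 were higher and 3 lower (median 0.26). Zbtb16, a transcription factor, had 89.4 against 25.5 CPM (log2 difference 1.93), the repressor Bcl6 9.83 against 2.07 (2.42), the metallothionein Mt2 9.66 against 1.63 (2.41) and Klf15 26.0 against 5.44 (2.37). Klf9, another classical target, had 50.4 against 157.4 CPM (-1.69), and the cell-cycle inhibitor Cdkn1a differed by -1.03.

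The clock genes other than Per1 were lower in inhibitory neurons in 10 of 15 and higher in 0 of 15 by edgeR (median -1.18 against -0.10 over all genes). Over all genes 22.6% were lower and 18.5% higher. Bhlhe40 had 7.11 against 65.9 CPM (-3.58), Hlf 19.6 against 86.9 (-2.45), Per3 29.7 against 92.9 (-1.87) and Dbp 12.2 against 29.9 (-1.33), each lower in 17 of 17 animals. Of the Sgk family and substrates, Nedd4l, a ubiquitin ligase that Sgk1 phosphorylates, differed by -0.91 and Sgk3 by -4.99 at low levels (0.749 against 6.16 CPM). Of the steroid enzymes, H6pd, which supplies the cofactor of Hsd11b1, had 0.724 against 1.27 CPM and passed (-2.80, adjusted p = 0.0258), but not without the animal block (-0.80, adjusted p = 0.51). Hsd11b2 was not analysed here.

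The sorting gates asked whether reporter-positive neurons differ from reporter-negative neurons of the same 8 animals. Over all neurons 0 of 7 members passed by edgeR, where 0.287% of 17752 genes did, with 1 member at an unadjusted p under 0.05 and 1 passing by DESeq2, which called 3.63% of genes. That member was Hsd11b1 both times. Its pos sums had 9.71, 19.3 and 29.8 CPM (lowest, median, highest) and its neg sums 1.57, 5.22 and 26.4 CPM. The pos value was higher in 7 of 8 animals, although the gates overlapped, with a difference of 1.61 (log2, SE 0.51, adjusted p = 0.309 by edgeR and 0.0043 by DESeq2, with 0.0043 to 0.768 over 16 alternatives). Without Context-Only animal 2 and Homecage animal 2 it was 0.98 (adjusted p = 0.478).

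Pos and neg sorts also differed in their makeup. The 10 inhibitory markers summed to between 1095 and 1475 CPM in pos and between 503 and 1006 CPM in neg sums, and 4 of the 10 passed as higher. Of 9 astrocyte markers tested, 9 had a value above 0 and 0 passed by edgeR (median 0.84, sums of 545.7 to 684 CPM in pos and 399.6 to 706 CPM in neg). In inhibitory neurons 6 of 7 were above 0 (median 1.0), and their part in the difference of Hsd11b1 was not tested. Hsd11b1 was therefore also read within classes. In excitatory neurons it had 1.80, 9.32 and 25.2 CPM in pos and 0.951, 2.34 and 7.65 CPM in neg sums, a difference of 1.74 (SE 0.65, adjusted p = 0.642), higher in 7 of 8 animals. In inhibitory neurons of 6 animals it had 17.2, 30.6 and 45.1 CPM in pos and 0, 11.1 and 47.5 in neg sums, a difference of 1.67 (SE 1.03, adjusted p = 0.679), higher in 4 of 6. A read of the gene was found in 11.4% ± 3.62 of pos and 8.0% ± 3.22 of neg cells (SD, n = 8), so the gate difference rested on few cells.

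Within excitatory neurons 0 of 7 members passed by edgeR (background 0.0119% of 16838 genes), 2 were at an unadjusted p under 0.05 and 1 passed by DESeq2 (Hsd11b1, adjusted p = 0.0413), which called 1.29% of genes. The second was Per1, with 41.8, 79.9 and 104.2 CPM in pos and 32.3, 55.8 and 72.4 CPM in neg sums, a difference of 0.36 (SE 0.14, adjusted p = 0.667) in 6 of 8 animals. Within inhibitory neurons 0 of 7 passed by edgeR and by DESeq2 and 0 had an unadjusted p under 0.05 (background 0% of 14416 genes by edgeR and 1.93% by DESeq2). Over all neurons Nr3c1 had 85.9 ± 13.6 CPM in pos and 86.4 ± 16.5 in neg sums (log2 difference 0.00 with SE 0.12, interval -0.23 to 0.23), and Nr3c2 9.22 ± 6.64 and 5.45 ± 2.74 (0.63, SE 0.62, interval -0.58 to 1.85, adjusted p = 0.75). An Nr3c1 read was found in 69.9% ± 15.6 of pos and 79.6% ± 11.9 of neg cells (64.5% and 74.1% thinned). The neg share was the higher one in 7 of 8 animals, and this was not tested. Inhibitory neurons made up 31.25% to 42.47% of the pos and 12.9% to 25.86% of the neg cells per animal. As given above, an Nr3c1 read was found in 46.5% of inhibitory and 81.5% of excitatory neurons. The shares by gate were not read within classes, and the part of this makeup in them was not tested.

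**Figure D4:**
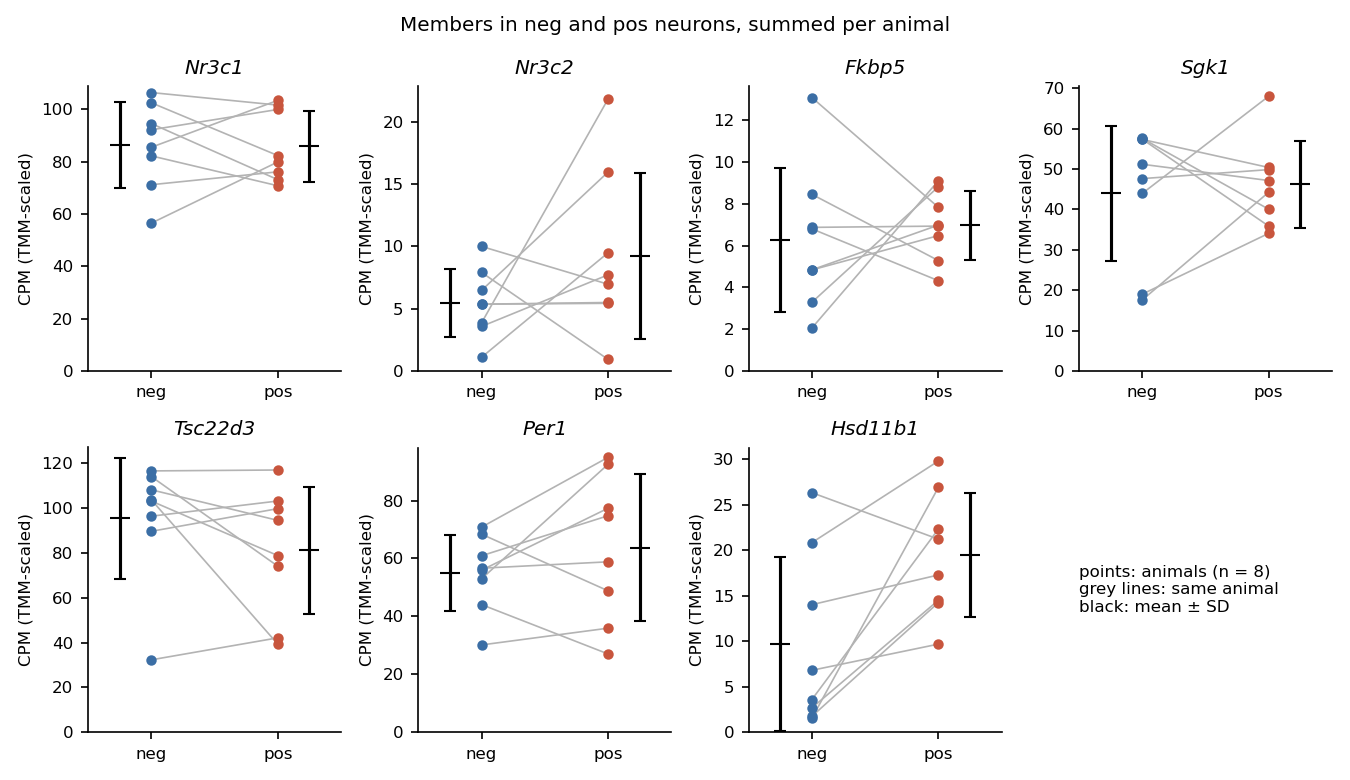
Level of each member (CPM, axis from 0) in the neg and pos sums of 8 animals; each line joins the 2 gates of 1 animal, and black marks are means ± SD. Hsd11b1 was higher in the pos sum in 7 of 8 animals, and Nr3c1 in 4 of 8.

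Of the pathway lists, 1 gene passed between gates by edgeR. Cdkn1a had between 124.9 and 542.9 CPM in pos and between 63.9 and 187.6 CPM in neg excitatory sums, higher in 8 of 8 animals, by 1.15 (SE 0.14, adjusted p = 0.0309). It no longer passed without the 2 animals named above (1.26, adjusted p = 0.0691), without the animal block (1.21, adjusted p = 0.737) or with each cell weighted alike (1.0, adjusted p = 0.103). Leaving out any 1 animal other than Homecage animal 2 also ended the call (1.09 to 1.22, adjusted p = 0.0545 to 0.172). In the same sums the clock gene Per3 had 182.2 and 88.8 CPM and did not pass by edgeR (0.75, adjusted p = 0.451) but passed by DESeq2 (0.76, adjusted p = 0.0228), and was higher in 8 of 8. DESeq2 was read only for the list genes eligible for naming, so the following is not a full list. Others of these that passed by DESeq2 and not in the main edgeR fit were Cdkn1a and Mt2 over all neurons (adjusted p = 0.000148 and 0.0036). In inhibitory neurons they were Ncoa1 (0.0394), Mt1 (0.00191), Nfkbia (0.000151) and Ndrg1 (0.0318). Cdkn1a over all neurons also passed by edgeR without the low-gene clusters (0.91, adjusted p = 0.0481).

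Conditions were compared in pos neurons, where Fear-Recall had 3 animals, Context-Only 3 and Fear-Only 2. Of the 7 members 0 passed by edgeR, by DESeq2 or at an unadjusted p under 0.05 in each of the 3 contrasts, and the background was 0% of 20381 genes in Fear-Recall against Context-Only, in Fear-Recall against Fear-Only and in Fear-Only against Context-Only. The contrasts share samples. Sgk1 had 40.1, 67.8 and 82.8 CPM in the 3 Fear-Recall sums, 35.8, 44.2 and 47.3 CPM in Context-Only and 33.9 and 49.7 CPM in Fear-Only. The highest 2 values were of Fear-Recall animals, but the groups overlapped, and the difference from Context-Only was 0.58 (log2, SE 0.32, adjusted p = 0.97). Homecage animal 2, the only one of its group with a pos sum, had 50.4 CPM.

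Per1 and Tsc22d3 were higher in the Fear-Recall than in the Context-Only animal of the same number in 3 of 3 pairs. Per1 had 59.0, 92.2 and 119.2 CPM in animals 2, 3 and 4 of Fear-Recall and 48.8, 74.6 and 95.2 CPM in those of Context-Only (0.31, SE 0.40, adjusted p = 0.987). Tsc22d3 had 74.1, 116.5 and 97.7 CPM against 42.1, 94.3 and 79.0 (0.42, SE 0.33, adjusted p = 0.97). With the number as a block neither passed. The other members were not higher or lower in 3 of 3 pairs, except Hsd11b1, which was lower in each with 22.4, 14.5 and 4.41 CPM against 26.9, 17.3 and 29.9 (-0.84, SE 0.55, adjusted p = 0.97). Within classes these orders did not all hold. In pos excitatory neurons Hsd11b1 was higher in Fear-Recall animals 3 and 4 (12.96 against 8.28 and 4.22 against 1.82 CPM) and lower in animal 2. In pos inhibitory neurons it was higher in animal 2 (45.6 against 30.3 CPM) and lower in animals 3 and 4. Per1 was lower there only in animal 4 (52.5 against 73.6 CPM). Beside these contrasts the 8 oligodendrocyte markers summed to between 77.3 and 113 CPM in Fear-Recall and between 166.2 and 291.2 CPM in Context-Only pos sums, with 0 of 8 passing by edgeR, and their part in the values was not tested.

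By class, 0 of 7 members passed by edgeR or DESeq2, or at an unadjusted p under 0.05, between Fear-Recall and Context-Only in pos excitatory neurons (background 0% of 19335 genes) or in pos inhibitory neurons (background 0% of 17527 genes). In pos inhibitory neurons Sgk1 had 44.98, 62.95 and 96.96 CPM in Fear-Recall animals 2, 3 and 4 and 14.6, 35.4 and 39.1 CPM in those of Context-Only. These groups did not overlap, with a difference of 1.20 (SE 0.54, adjusted p = 0.985). The share of all genes without overlap was not counted, so this is a description. Over all pos neurons Fkbp5 and Tsc22d3 likewise did not overlap between the 2 Fear-Only and 3 Context-Only animals. In pos excitatory neurons Sgk1 had 38.4, 70.2 and 78.4 CPM against 60.97, 35.9 and 50.9, which overlapped (0.34, SE 0.32, adjusted p = 0.953). Whether the classes differ in this was not tested.

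Nr3c2 values had opposite signs in the 2 classes. Its level in pos excitatory neurons was lower in Fear-Recall in 3 of 3 pairs, with 5.48, 1.51 and 2.38 CPM against 21.96, 2.47 and 2.79 (-1.54, SE 0.90, adjusted p = 0.949). In pos inhibitory neurons it was higher in 3 of 3, with 36.1, 17.1 and 32.5 CPM against 21.8, 15.5 and 11.2 (0.82, SE 0.49, adjusted p = 0.985). The excitatory difference turned to 0.25 without Context-Only animal 2.

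Against Homecage only sums over all gates could be compared, which mix gates in different parts, with 5 animals per condition and 4 of Homecage. By edgeR 0 of 7 members passed in Fear-Recall, Fear-Only or Context-Only against Homecage (background 0% of 19698 genes in each), and 0, 1 and 2 had an unadjusted p under 0.05. By DESeq2 0 passed. Fkbp5 had 6.07, 5.77, 20.8 and 22.6 CPM in the Homecage animals. It had 7.33, 5.44, 6.90, 2.84 and 8.55 CPM in Fear-Only, a difference of -1.15 (SE 0.46, adjusted p = 0.723). In Context-Only it had 7.09, 6.66, 9.55, 7.43 and 4.36 CPM, a difference of -0.98 (SE 0.46, adjusted p = 1.0). The high Homecage values were those of animals 4 and 5, of which animal 4 had 17 cells, with 70.6% of its Fkbp5 reads in 1 cell, and animal 5 had 71.5% in 1 cell. Animals 2 and 3 lay within the other groups.

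Hsd11b1 had 8.02, 6.40, 0 and 9.35 CPM in Homecage and 19.6, 16.9, 26.7, 8.41 and 34.0 CPM in Context-Only, a difference of 1.82 (SE 0.81, adjusted p = 1.0) in groups that overlapped by 1 Context-Only value. Nr3c1 had a median of 102.9 CPM in Homecage (n = 4) and of 87.9, 82.5 and 93.1 in Fear-Recall, Fear-Only and Context-Only (n = 5 each), and the differences of -0.39, -0.37 and -0.26 did not pass (adjusted p = 0.605, 0.742 and 1.0).

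**Figure D5:**
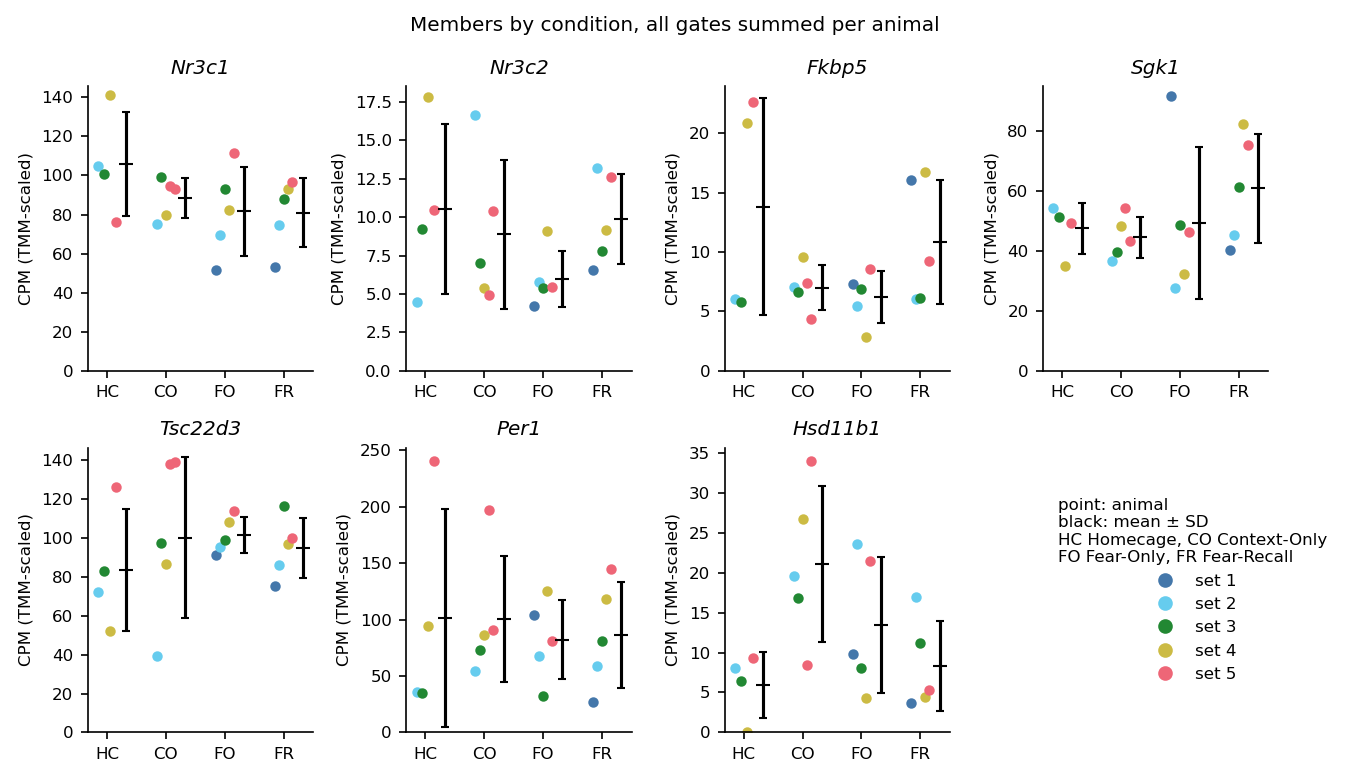
Level of each member (CPM, axis from 0) in the all-gate sums of 19 animals by condition, coloured by the shared number (set), with means ± SD in black. Groups overlap for every member, and the highest Per1 values are Homecage animal 5 (240.8 CPM) and Context-Only animal 5 (197.1 CPM).

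The number shared by animals of different conditions went with more of the spread of some members than the condition did. Over 19 animals it took 62% of the variance of log2 Nr3c1, 56.3% of that of Per1 and 46.4% of that of Tsc22d3, against 20%, 2.36% and 7.83% for condition. The medians over 9246 genes were 49.2% and 15.3%, so these members were near the general level. For Fkbp5, Hsd11b1 and Nr3c2 condition took more (26.6%, 38.1% and 22.2%, against 19.4%, 28% and 15.4%). Any grouping of 19 animals takes some share of the variance, and none of these shares was tested. Nr3c1 was lowest in both animals numbered 1, with 51.4 and 53.3 CPM. Per1 spread widely among the animals numbered 5, from 81.3 to 240.8 CPM.

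The genes most like each member were sought over 19 animals (Spearman, after the mean of each number was removed) and over 20 clusters (Pearson, log2 CPM). Points share depth and library preparation, and values are descriptions of the strongest among 5049 and 4694 genes. Across clusters Tsc22d3 was closest to Syngr3 (0.922), Abcf3 (0.919) and Dgat1 (0.917), Per1 to Ddx41 (0.914), Nr3c1 to Atp2b1 (0.844), a calcium pump gene, Hsd11b1 to Cnr1 (0.822), Sgk1 to Tmem178 (0.805), Nr3c2 to Ap1s2 (0.785) and Fkbp5 to Slc25a1 (0.741). Across animals the closest were Rabif for Tsc22d3 (0.881), Trak1 for Nr3c2 (0.84), Mob2 for Hsd11b1 (0.825), Gpr22 for Nr3c1 (0.807), Pja1 for Per1 (0.8), Thoc2 for Fkbp5 (0.796) and Hnrnpll for Sgk1 (0.772). No gene was first for a member by both measures.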

How the data were processed

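Read counts per gene and cell were deposited by the authors. Per the submitters' processing notes the tools include Bowtie 0.12.2 and the builds mm8 and mm10, without roles, and for the read-to-gene counter, not given in the sources used here, no setting is known, so mapping to paralogs and strand use are unknown. Cells were grouped by labelled condition, animal and gate.

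The reporter was left out, leaving 23354 genes. Cells were clustered without the 7 members (scanpy 1.11.5, 2000 variable genes, 30 components, 15 neighbours, Leiden resolution 1.0 with leidenalg 0.10.2), and clusters were classed by marker lists. Cells had been sorted singly into plates, and doublets were not called. Reads were summed per animal, with 10 or more cells, and tested with edgeR 4.0.16 (TMM, quasi-likelihood, minimum count 10 and total 15) in R 4.3.3, with Benjamini-Hochberg adjustment over all genes at 0.05. Smart-seq2 reads are not independent molecules. Alternatives were DESeq2 1.42.0, limma 3.58.1 (log2 CPM with a prior count of 2), other scaling, filters, cell weights, blocks, cell sets and leaving out animals. Exon lengths and gene positions came from GENCODE vM21 (GRCm38), on which the table does not rest. Python 3.11.15 was used.

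The 7 members are always named. From each pathway list the genes past 0.05 are named, at most the 4 of smallest p per direction, and where none passed the 2 of smallest p were eligible, along with the 3 closest genes per member. Of the genes eligible by this rule, 1 is not reported here. Members and lists were chosen with earlier results of these data known. The labels do not say whether sums come from separate litters or days. Deviations of same-numbered animals correlated above 0.1 in 28 of 28 pairs over all gates (0.183 to 0.665) and in 7 of 7 in pos inhibitory neurons. In pos neurons and in pos excitatory neurons they did so in 6 of 7. Animals of 1 number were therefore taken as paired over all gates and in pos inhibitory neurons. The main differences, SEs and p-values of the condition comparisons nevertheless come from fits that leave this pairing out. The block by number was run as an alternative in each condition comparison. Orders by number in pos neurons and in pos excitatory neurons are descriptions.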

Additional observations from a re-analysis of the deposited data

Results flagged for a closer look

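Of 70 groups of 4 to 10 animals, 5 held a value far from the others, and chance alone gives about 1 such group in 20. Per1 in the all-gate sums of Context-Only was 197.1 CPM in animal 5, against 54.8 to 90.5 in the others. Tsc22d3 in the neg sums was 32.3 CPM in Context-Only animal 2, against 89.5 to 116.4 in the other 7 animals, and in the neg excitatory sums it was 33.9 CPM there, against 84.7 to 106.7. Nr3c2 in the pos excitatory sums was 21.9 CPM in Context-Only animal 2, against 0.0556 to 5.46 in the others, and 1 cell held 62.4% of the Nr3c2 reads of that animal's pos sum. Hsd11b1 in the neg excitatory sums was 7.65 CPM in Context-Only animal 4, against 0.951 to 3.69.

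The difference of Nr3c2 between Fear-Recall and Context-Only had opposite signs in the classes for each shared number. It averaged -0.82 (log2) in pos excitatory neurons and lay between 0.13 and 1.46 in pos inhibitory neurons. The difference between the classes was not tested.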

How the results depend on the processing

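DESeq2 called 1 member, Hsd11b1, between gates over all neurons and 1 in excitatory neurons, where edgeR called 0. Between classes 4 members passed in place of 5 without the animal block (Per1 lost) and without the Cnr1 and Vip cluster (Hsd11b1 lost). The number stayed at 0 for the gates and conditions and at 5 for the classes when any 1 animal was left out. With the replicate block (the shared number as a term) 0 members and 0 genes passed in each of the 8 condition comparisons, so it changed no call. Of 644 member values under the other settings 53 changed sign, 3 of them where the value had been at least 1 SE from 0, and only those were taken as reversals. They were Per1 between gates in inhibitory neurons, 0.11 without the 2 weakest pos sorts (a setting chosen after seeing the data), Nr3c2 in Fear-Only against Context-Only, 0.45 with reporter-read cells only, and Nr3c2 in Fear-Recall against Context-Only in pos excitatory neurons, 0.44 without the low-gene clusters. Leaving out 1 animal gave a range of -1.09 to 0.17 and of -2.22 to 0.25 for these Nr3c2 values, positive without Context-Only animal 2. It also turned list genes that had not passed, Per3 between Fear-Recall and Context-Only in pos excitatory (-1.95 to 0.39) and pos inhibitory neurons (-2.16 to 0.87), H6pd in pos inhibitory neurons (-3.11 to 0.56) and Nr1d2 between Context-Only and Homecage (-1.18 to 0.27). The causes were not tested.

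Counts of all genes moved more. Between gates edgeR called 51 over all neurons, 2 in excitatory and 0 in inhibitory neurons, against 644 (3.63% of genes), 1.29% of genes and 278 (1.93%) by DESeq2. The first was 90 with cells weighted alike, 19 without the animal block, 18 without low-gene clusters, 10 without the 2 weakest pos sorts and 1 to 32 with 1 animal left out. In excitatory neurons the range with 1 animal left out was 0 to 8. In the condition comparisons, where edgeR called 0, DESeq2 called 7 to 92. Thinned to 100000 reads per cell, the mean share of pos cells with a read fell from 16.4% to 11.6% for Nr3c2 and from 11.4% to 10.2% for Hsd11b1.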
